A study of Mus musculus with 17 samples.

Results

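The 10 core clock genes Arntl, Clock, Per1, Per2, Per3, Cry1, Nr1d1, Nr1d2, Dbp and Tef were followed through wounded mouse skin with and without ionizing radiation. They were chosen by name from a deposited expression table of 34140 genes, and all 10 had a row. The skin came from C57/BL6j mice, and every group shares this strain. The control groups, with no radiation, were sampled at day 0 (2 libraries), day 3 (2), day 6 (2) and day 9 (3). The irradiated groups were sampled at day 3 (3 libraries), day 6 (2) and day 9 (3), which makes 17 libraries in 7 groups. The series counts days 3, 6 and 9 from injury, and its stated question is which molecules act in wound healing after irradiation. The labels do not say whether the day-0 skin had been cut, and no irradiated library carries day 0. They also give neither the age of the mice, the radiation dose nor the hour of the day at which skin was taken. Replicate numbers below are those of the labels, which skip some numbers.

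The circadian clock is a transcription loop that most cells of the body run, skin cells among them. The proteins of Arntl (also called Bmal1) and Clock pair up and switch on genes that carry E-boxes, among them the Per, Cry, Nr1d1, Nr1d2, Dbp and Tef genes. PER and CRY proteins then shut that pair down, and NR1D1 and NR1D2 (REV-ERB alpha and beta) repress Arntl through sites called ROREs. In a running clock Arntl is therefore high when Dbp, Per3 and Nr1d1 are low, and the levels of most of these genes depend on the hour of sampling. Since the labels give no hour, sampling hour and group cannot be told apart here.

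Expression is given in FPKM, which scales fragments by gene length and by library depth. Each library held 25440773 to 30797409 assigned fragments. All 10 genes passed the filter on low values. Arntl was the lowest of them on this per-length scale, with a median of 1.84 FPKM over the 17 libraries and 283 to 779 fragments per library. Tef (median 15.5 FPKM) and Nr1d2 (15.6 FPKM) were the highest. The other medians were 10.1 FPKM for Per1, 8.05 for Nr1d1, 6.93 for Cry1, 6.67 for Dbp, 5.72 for Clock, 4.23 for Per2 and 4.19 for Per3. The 2 day-0 libraries stood apart from the other 15 in mitochondrial and muscle RNA. Mitochondrially encoded genes took 21.7% and 31.8% of their summed FPKM against 8.33% to 12.6% elsewhere. The summed level of 8 skeletal muscle markers was 17950 and 20815 FPKM at day 0 and 1289 to 4507 FPKM in the later libraries. That of 8 keratinocyte markers was 2999 and 5419 FPKM at day 0 and 4871 to 16641 FPKM later, so these ranges overlapped. No marker of these 2 lists was at 0 in any library.

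**Figure D1:**
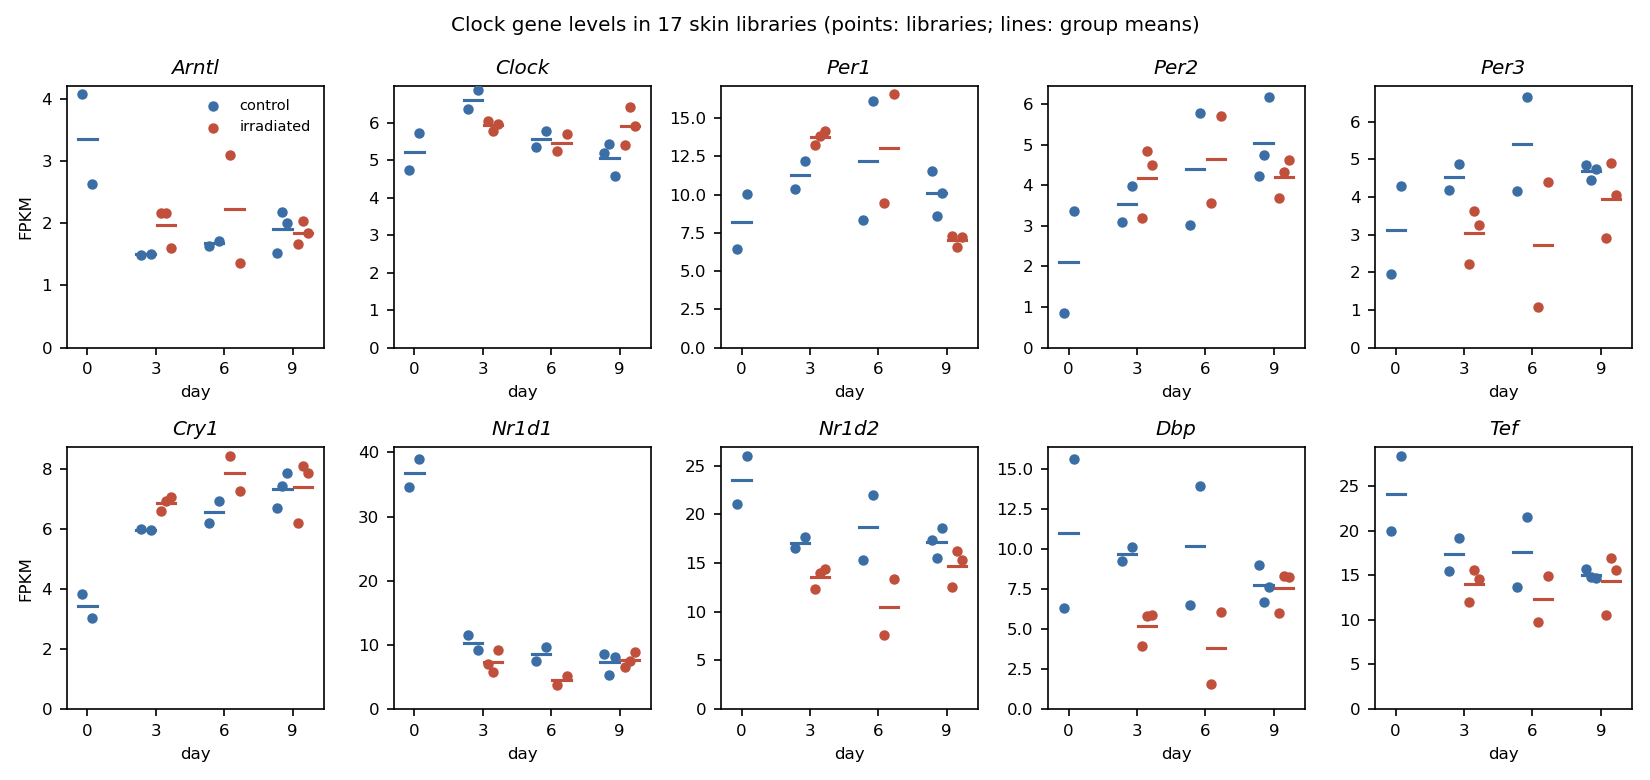
FPKM of each clock gene (vertical axis, its own scale in each panel) by day (horizontal axis) in control (blue) and irradiated (red) libraries; each point is a library and each line a group mean. Nr1d1 sits at 34.6 and 39.0 FPKM at day 0 and no higher than 11.5 FPKM later, and Dbp and Per3 have their lowest points in an irradiated day-6 library.

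The start regions of these genes were read for the motifs through which the loop is known to work. RefSeq windows of 300 bases around start sites (build GRCm38.p6) were found for 9 of the 10 genes, 14 windows in all, and Per2 had none. They were searched on both strands for the E-box CACGTG, the E-prime box CACGTT, which reads AACGTG from the other strand, the D-box TTATGNAA, to which DBP and TEF bind, and the RORE GTAGGTNA. Among 32851 windows of all genes, 7.15% held the E-box, 4.68% the E-prime box, 3.38% the D-box and 2.14% the RORE. The matches in the 4 windows printed here do not overlap each other. The 4 are windows that hold a match, and motif matches are in capitals. Windows of Dbp and Nr1d2, genes whose levels are also described closely, hold no match and are not printed. A match describes letters only.

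Arntl, whose window at chr7:113207261-113207560 on the plus strand holds 2 ROREs, with first bases at positions -7 and 30 from the start site:
Arntl: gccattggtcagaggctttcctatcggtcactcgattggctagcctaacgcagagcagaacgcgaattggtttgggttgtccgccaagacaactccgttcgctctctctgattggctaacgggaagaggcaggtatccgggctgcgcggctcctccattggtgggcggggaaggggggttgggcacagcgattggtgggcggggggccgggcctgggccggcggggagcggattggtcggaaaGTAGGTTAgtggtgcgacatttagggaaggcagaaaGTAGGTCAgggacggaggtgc
Nr1d1, whose window at chr11:98775328-98775627 on the minus strand holds 1 E-prime box, with its first base at -28:
Nr1d1: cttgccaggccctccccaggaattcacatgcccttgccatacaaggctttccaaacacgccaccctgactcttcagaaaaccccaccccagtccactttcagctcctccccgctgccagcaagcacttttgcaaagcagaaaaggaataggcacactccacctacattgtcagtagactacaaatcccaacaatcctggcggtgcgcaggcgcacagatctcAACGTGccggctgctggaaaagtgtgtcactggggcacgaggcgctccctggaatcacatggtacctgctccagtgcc
Cry1, whose window at chr10:85185005-85185304 on the minus strand holds 1 E-prime box at -79 and 1 E-box at -60:
Cry1: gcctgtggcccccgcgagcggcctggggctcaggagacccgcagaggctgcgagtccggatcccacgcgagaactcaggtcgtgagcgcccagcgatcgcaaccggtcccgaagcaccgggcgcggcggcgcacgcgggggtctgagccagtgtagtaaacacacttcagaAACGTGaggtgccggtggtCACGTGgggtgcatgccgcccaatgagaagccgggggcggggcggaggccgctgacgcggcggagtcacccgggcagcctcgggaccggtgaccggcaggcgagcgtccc
Per3, whose window at chr4:151044616-151044915 on the minus strand holds 2 D-boxes, at -205 and -158:
Per3: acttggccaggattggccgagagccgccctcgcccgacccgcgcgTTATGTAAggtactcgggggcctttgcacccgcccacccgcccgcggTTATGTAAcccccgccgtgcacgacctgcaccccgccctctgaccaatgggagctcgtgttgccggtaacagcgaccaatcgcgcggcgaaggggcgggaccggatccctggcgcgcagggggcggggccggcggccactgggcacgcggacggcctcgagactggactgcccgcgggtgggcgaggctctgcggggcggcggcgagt
Of the windows not printed, 1 of Per1 held an E-box at -166 and a D-box at -24, and both windows of Tef held an E-box, at -127 and -138. None of the 4 motifs was found in the windows of Clock, Dbp and Nr1d2 or in the other window of Per1. The other window of Arntl (chr7:113207215-113207514) overlaps the printed one. Its 1 RORE is the same site as the one at -7 in the printed window.

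Between day 0 and the control wounds, Nr1d1 fell and Cry1 rose at each of days 3, 6 and 9. Arntl fell at all 3 days, and each of its calls ended when any 1 of several control libraries was left out. Per1, Per3, Nr1d2 and Dbp did not pass the test at any of these days. Each change is a difference of group means of log2(FPKM + 1), SE is its standard error, and adjusted p is from limma over 15271 genes, with values under 0.05 passing. Gene positions are those of the deposited table, in build mm10. At day 3, 4 of the 10 genes passed, where 38.1% of all tested genes did. At day 6 the count was 3, against 35.3% of all genes, and at day 9 it was 5, against 48.4%. The shares among the clock genes were thus near those of the whole transcriptome. The 3 comparisons share the same 2 day-0 libraries, so they are not independent of each other. By groups that did not overlap, 7 of the 10 genes separated from day 0 at day 3, 3 at day 6 and 7 at day 9, where 68.3%, 61% and 64.3% of all tested genes did.

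Of the activators, Arntl (ENSMUSG00000055116, chromosome 7, 113207465 to 113314126), whose protein binds DNA together with CLOCK, was at 4.07 and 2.63 FPKM in replicates 1 and 2 of day 0. Control wounds held 1.49 and 1.51 FPKM at day 3, 1.64 and 1.72 FPKM at day 6, and 1.52, 2.19 and 2.0 FPKM at day 9. Every control wound lay under both day-0 libraries, and the day-0 libraries differed by 1.55 times. The change was -0.78 at day 3 (SE 0.23, limma adjusted p 0.0167), -0.68 at day 6 (SE 0.23, adjusted p 0.0335) and -0.57 at day 9 (SE 0.21, adjusted p 0.036). Without replicate 1 of day 0 it was -0.54, -0.44 and -0.33, with limma adjusted p of 0.15, 0.242 and 0.319, so all 3 calls ended. The day-3 call also ended without replicate 1 or 3 of control day 3 (adjusted p 0.0763 and 0.0634), the day-6 call without replicate 1 or 2 of control day 6 (0.116 and 0.0864), and the day-9 call without replicate 1 or 3 of control day 9 (0.111 and 0.0558). With only the compared groups fitted, 0 of these 3 calls remained (adjusted p 0.0775, 0.15 and 0.0773). With low genes kept those of days 6 and 9 ended (0.0738 and 0.0757), and with the replicate block that of day 9 (0.0663). Its partner Clock (ENSMUSG00000029238, chromosome 5, 76209868 to 76304792) moved little. Clock was at 4.74 and 5.72 FPKM at day 0, 6.38 and 6.87 FPKM at control day 3, 5.35 and 5.79 FPKM at day 6, and 5.19, 5.44 and 4.58 FPKM at day 9. Control day 3 was the highest group, above every other control library. Clock passed at day 3 against day 0 (0.29, SE 0.10, limma adjusted p 0.0374), and this call ended under both alternative scalings between libraries (adjusted p 0.274 and 0.32). The call ended as well without replicate 1 of day 0 (0.18, adjusted p 0.259), without either library of control day 3 (adjusted p 0.0788 and 0.172), and without irradiated day-3 replicate 1 or 3 (0.0504 and 0.0512).

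Those scalings matter to every comparison with day 0. The median log2 fold change over all tested genes was 0.16, 0.11 and 0.15 at days 3, 6 and 9. It became 0.00, 0.02 and 0.04 when FPKM was rescaled by the median of ratios, and 0.04, -0.06 and 0.10 when it was rescaled to the nuclear genes. The directions given here for Arntl, Cry1 and Nr1d1 were the same under both.

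Among the feedback repressors, Cry1 (ENSMUSG00000020038, chromosome 10, 85131700 to 85185064), a strong inhibitor of the activating pair, was at 3.82 and 3.05 FPKM at day 0. It was at 5.99 and 5.98 FPKM at control day 3, 6.22 and 6.94 FPKM at day 6, and 6.72, 7.42 and 7.88 FPKM at day 9. No control wound came near the day-0 range. The rise was 0.66 at day 3 (SE 0.13, limma adjusted p 0.0016), 0.78 at day 6 (SE 0.13, adjusted p 0.000693) and 0.91 at day 9 (SE 0.12, adjusted p 6.45e-05). Irradiated wounds, at 6.19 to 8.45 FPKM, were above day 0 as well. In the start region of Cry1 printed above, an E-box and an E-prime box lie close together.

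The Per genes, which carry the timing of the repressive arm, showed wide spread at day 0. Per2 (ENSMUSG00000055866, chromosome 1, 91415982 to 91459324) was at 0.859 and 3.37 FPKM there, a difference of 3.92 times between libraries of one group. Control wounds held 3.10 and 3.97 FPKM at day 3, 3.03 and 5.78 FPKM at day 6, and 4.23, 4.75 and 6.18 FPKM at day 9. Only the day-9 group lay wholly above day 0. Per2 rose at day 9 by 1.07 (SE 0.33, limma adjusted p 0.0164), and without replicate 1 of day 0 the value was 0.46 (adjusted p 0.273). Without replicate 3 of control day 9 it was 0.94 (adjusted p 0.0507). Per1 (ENSMUSG00000020893, chromosome 11, 69095217 to 69109960), which also answers quickly to stress and hormone signals, had changes of 0.43, 0.48 and 0.28 at days 3, 6 and 9, with limma adjusted p of 0.249, 0.207 and 0.386. Per3 (ENSMUSG00000028957, chromosome 4, 151003652 to 151044665) had changes of 0.49, 0.68 and 0.53, with adjusted p of 0.351, 0.199 and 0.241. Their day-0 levels were 6.45 and 10.0 FPKM for Per1 and 1.94 and 4.28 FPKM for Per3.

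Of the nuclear receptor genes, Nr1d1 (ENSMUSG00000020889, chromosome 11, 98767932 to 98775333) had the largest change of the 10 genes. It was at 34.6 and 39.0 FPKM at day 0. Control wounds held 11.5 and 9.13 FPKM at day 3, 7.51 and 9.73 FPKM at day 6, and 8.64, 5.29 and 8.05 FPKM at day 9. Irradiated wounds held 7.10, 5.80 and 9.17 FPKM at day 3, 3.79 and 5.22 FPKM at day 6, and 6.57, 7.57 and 8.87 FPKM at day 9. The 15 later libraries therefore all lay far below both day-0 libraries. In the control arm the fall was -1.74 at day 3 (SE 0.24, limma adjusted p 0.000212), -1.98 at day 6 (SE 0.24, adjusted p 0.000121) and -2.2 at day 9 (SE 0.22, adjusted p 1.58e-05). These calls held under all 25 alternatives run. Nr1d1 and Cry1 were the only members that separated day 0 from all 15 later libraries, a pattern shown by 12.7% of all tested genes in the lower direction and by 20.7% in the higher direction. Its close relative Nr1d2 (ENSMUSG00000021775, chromosome 14, 18204054 to 18239127) was at 21.0 and 25.9 FPKM at day 0 and at 15.3 to 22.0 FPKM in control wounds. The changes of Nr1d2 were -0.43, -0.33 and -0.43, with limma adjusted p of 0.143, 0.266 and 0.0997.

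Nr1d1 shares 263 of its 3077 exonic bases with Thra, a gene on the opposite strand, and Dbp shares 539 of 2993 with Sphk2. The labels do not say whether the counting used strand, so reads from these stretches cannot be assigned to one gene. Thra was at 13.3 and 14.4 FPKM at day 0 and at 6.90 to 15.03 FPKM later. Sphk2 was at 9.61 and 11.2 FPKM at day 0 and at 7.06 to 11.1 FPKM later.

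The PAR bZIP genes encode output factors that pass the rhythm on to metabolic genes. Dbp (ENSMUSG00000059824, chromosome 7, 45705088 to 45710203) was at 6.34 and 15.7 FPKM at day 0, a difference of 2.47 times. Control wounds held 9.25 and 10.1 FPKM at day 3, 6.5 and 13.9 FPKM at day 6, and 8.98, 6.67 and 7.65 FPKM at day 9. All of these lay between the 2 day-0 libraries. The changes of Dbp were -0.05, -0.06 and -0.34, with limma adjusted p of 0.945, 0.932 and 0.529. Tef (ENSMUSG00000022389, chromosome 15, 81802421 to 81826861) was at 19.9 and 28.4 FPKM at day 0, 15.5 and 19.1 FPKM at day 3, 13.7 and 21.5 FPKM at day 6, and 15.7, 14.8 and 14.7 FPKM at day 9. Tef fell at day 9 by 0.63 on the log2 scale (SE 0.24, limma adjusted p 0.0476), and this call held in 13 of 25 alternatives. The change was -0.38 without replicate 2 of day 0, and the call ended. The call also ended without any 1 of both control day-3, all 3 control day-9 and all 3 irradiated day-3 libraries or irradiated day 9, replicate 3. Keeping low genes ended it too, as did limma-voom on recovered fragments, where those of Tef were rounded estimates.

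The difference in tissue makeup moved with these changes. All 8 skeletal muscle markers fell at each of days 3, 6 and 9. Of the 8 keratinocyte markers, 3 rose and 0 fell at day 3, 2 rose and 1 fell at day 6, and 3 rose and 1 fell at day 9. Day 9 held further differences from day 0. All 6 hair follicle markers rose there (median 5.13 on the log2 scale), and their summed level went from 0.931 and 3.83 FPKM to 56.6 to 895 FPKM, with Krt35 at 0 in a day-0 library. Of 6 adipocyte markers 4 fell (median -2.10), from sums of 575 and 775 FPKM to 106 to 153 FPKM. Of 5 endothelial markers 4 rose and 1 fell, and 3 of 6 fibroblast markers and 2 of 4 tested T cell markers rose. At day 3, 3 endothelial, 2 neutrophil and 1 macrophage marker passed. Under both other scalings 2 in place of 3 keratinocyte markers rose at days 3 and 9, and all 8 muscle markers still fell. In bulk skin, fewer cells of a type and less RNA per cell cannot be told apart. The part of tissue makeup in the levels of Nr1d1, Cry1 or Arntl was not tested.

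**Figure D2:**
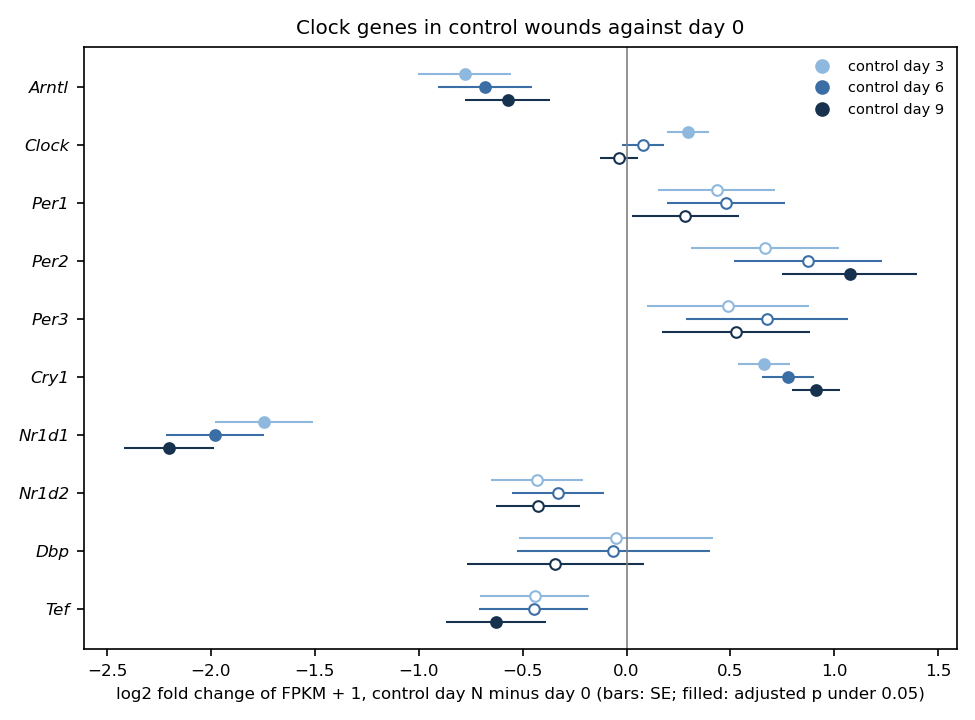
Log2 fold change of FPKM + 1 (horizontal axis) of each clock gene in control wounds at days 3, 6 and 9 minus day 0; bars are standard errors and filled points have an adjusted p under 0.05. Nr1d1 lies furthest to the left, from -1.74 to -2.2, and Cry1 is filled on the right at each day.

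Within the wound series, Clock was the only member that differed between control day 9 and control day 3 (-0.33, SE 0.09, limma adjusted p 0.0291). In this comparison 18.2% of all tested genes passed. The call ended when FPKM was rescaled to the nuclear genes (adjusted p 0.137). Without any 1 of day-3 replicates 1 and 3 or day-9 replicates 1 and 3 it ended too (adjusted p 0.0769, 0.222, 0.0576 and 0.0817). Groups did not overlap for 6 of the 10 genes, and for 57.8% of all. Nr1d1 had a value of -0.46 (adjusted p 0.158) and Cry1 one of 0.25 (adjusted p 0.142). Between irradiated day 9 and irradiated day 3, 0 of the 10 genes passed with limma, 1 had an unadjusted p under 0.05, and limma-voom on recovered fragments called 0. There 0.963% of all genes passed. Groups did not overlap for 2 of the 10 genes, Per1 and Dbp, and for 31.6% of all. The gene with the low unadjusted p was Per1, which was at 13.2, 13.9 and 14.2 FPKM at irradiated day 3 and at 7.28, 6.56 and 7.23 FPKM at irradiated day 9. These groups of Per1 lay far apart, with a difference of -0.88 (SE 0.23, adjusted p 0.088). When only these 2 groups were fitted, Per1 passed (adjusted p 0.0105).

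Against control wounds of the same days, irradiated wounds had lower Nr1d2, and lower levels of Dbp, Per3 and Nr1d1 were seen that did not pass. Markers of cell types differed between the arms too. In the averaged comparison all 6 adipocyte markers had positive differences (median 0.75 on the log2 scale), and Adipoq (1.21, limma adjusted p 0.0444) and Cfd (1.58, adjusted p 0.00299) passed. Their summed level was 106 to 447 FPKM in control and 320 to 1498 FPKM in irradiated wounds, with no marker at 0. Of 6 macrophage and monocyte markers, 3 had positive and 3 had negative differences (median 0.34), and 2 passed. These were the macrophage gene Cd68, which was higher (0.91, limma adjusted p 0.0363), and the monocyte receptor gene Ccr2, which was lower (-1.55, adjusted p 0.0128). All 4 tested T cell markers had negative values (median -0.76), as did all 6 hair follicle (-0.72) and all 5 endothelial markers (-0.13), while all 6 neutrophil markers had positive ones (0.59). In these 4 lists, as in those of muscle, keratinocytes and fibroblasts, 0 markers passed with limma or limma-voom, and the limma counts at an unadjusted p under 0.05 were 4 for T cells, 3 for muscle, 2 for endothelium, 1 each for neutrophils and keratinocytes, and 0 for the others. Rescaled to nuclear genes, Adipoq and Cd68 no longer passed. The part of these differences in the clock gene levels was not tested. The comparison averaged days 3, 6 and 9 with equal weight and set 8 irradiated against 7 control libraries. In it 1 of the 10 genes passed, where 6.93% of all tested genes did. In the downward direction it was 1, against 2.57% of all genes. Nr1d2 was at 16.5 and 17.6 FPKM in control day 3, 15.3 and 22.0 FPKM in control day 6, and 17.4, 15.6 and 18.6 FPKM in control day 9. Irradiated wounds held 12.3, 13.9 and 14.4 FPKM at day 3, 7.62 and 13.3 FPKM at day 6, and 12.6, 16.3 and 15.3 FPKM at day 9. At days 3 and 6 every irradiated library was lower than every control library, and at day 9 they overlapped. Pooled over days 3, 6 and 9, Nr1d2 was at 17.6 ± 2.26 FPKM (SD, n = 7) in control and 13.2 ± 2.62 FPKM (SD, n = 8) in irradiated wounds. These SDs include differences between days. Averaged over days with equal weight, Nr1d2 fell by 0.44 on the log2 scale (SE 0.12, limma adjusted p 0.0405). This call held in 12 of 25 alternatives, with adjusted p from 0.00521 to 0.106. Without irradiated day 6, replicate 1, the value was -0.32 (adjusted p 0.0913). Among the 15 wound libraries, the call remained when control day 6, replicate 1, irradiated day 6, replicate 3, or irradiated day 9, replicate 2, was left out, and ended without any 1 of the other 12.

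Dbp in irradiated wounds was at 3.93, 5.83 and 5.91 FPKM at day 3, 1.56 and 6.10 FPKM at day 6, and 6.04, 8.33 and 8.28 FPKM at day 9. Set against the control values given above, Dbp was lower in every irradiated library at days 3 and 6, and the arms overlapped at day 9. The averaged difference was -0.72 (SE 0.25, limma adjusted p 0.103), and -0.47 without irradiated day 6, replicate 1 (adjusted p 0.256). By day it was -0.80 at day 3, -1.31 at day 6 and -0.04 at day 9, with adjusted p of 0.529, 0.229 and 0.962. Per3 was at 4.19 and 4.88 FPKM in control day 3, 4.17 and 6.67 FPKM in control day 6, and 4.87, 4.46 and 4.74 FPKM in control day 9. Irradiated wounds held 2.21, 3.64 and 3.27 FPKM of Per3 at day 3, 1.07 and 4.4 FPKM at day 6, and 2.91, 4.89 and 4.07 FPKM at day 9. Per3 was lower in each irradiated library at day 3, while at days 6 and 9 the arms overlapped. The averaged difference of Per3 was -0.53 (SE 0.21, limma adjusted p 0.144), and -0.30 without irradiated day 6, replicate 1 (adjusted p 0.347). For Nr1d1 it was -0.39 (SE 0.13, adjusted p 0.0815). Tef stood at -0.28 (adjusted p 0.251), Arntl at 0.15 (adjusted p 0.511) and Cry1 at 0.13 (adjusted p 0.259). Clock, Per1 and Per2 had averaged differences of 0.01, -0.03 and 0.02, the 3 smallest in size, and their signs changed in some alternatives.

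Taken day by day, 0 of the 10 genes passed with limma in any irradiation comparison. Over all genes, 1.85% passed at day 3, 0.275% at day 6 and 5.38% at day 9. Of the 10 genes, 0 at day 3, 4 at day 6 and 1 at day 9 had an unadjusted p under 0.05. The share of all genes at that threshold is not given here. The shares above are from adjusted p and cannot be set beside these counts. Limma-voom on recovered fragments called 0 of the 10 on each day. The 4 at day 6 were Dbp, Per3, Nr1d1 (-0.81, SE 0.24, limma adjusted p 0.168) and Nr1d2 (-0.80, SE 0.22, adjusted p 0.149), and the 1 at day 9 was Clock (0.19, SE 0.08, adjusted p 0.203). Without irradiated day 6, replicate 3, which leaves 1 library assumed to vary like those of the other groups, Dbp (-2.05), Per3 (-1.60) and Nr1d2 (-1.17) passed at day 6, with limma adjusted p of 0.0262, 0.024 and 0.012. In that fit 6.47% of all tested genes passed. Without replicate 1 instead, Dbp stood at -0.58, Per3 at -0.22 and Nr1d2 at -0.44, with limma adjusted p of 0.78, 0.908 and 0.584. Counting groups that did not overlap, 7 of the 10 genes separated at day 3, 4 at day 6 and 1 at day 9, where 41%, 35.8% and 34% of all tested genes did. At day 3 the 3 higher genes were Arntl, Per1 and Cry1 (15.9% of all genes were higher in this way), and the 4 lower ones were Clock, Per3, Nr1d2 and Dbp (25.1%). At day 6 Cry1 was higher (19.8%) and Nr1d1, Nr1d2 and Dbp were lower (16%), and at day 9 Per1 was lower (17.2%). The F test of whether the irradiation effect differs between days called 0 of the 10 genes with limma, against 0.0131% of all genes. In that test 1 clock gene, Nr1d1, had an unadjusted p under 0.05 (adjusted p 0.298), and limma-voom called 0.

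**Figure D3:**
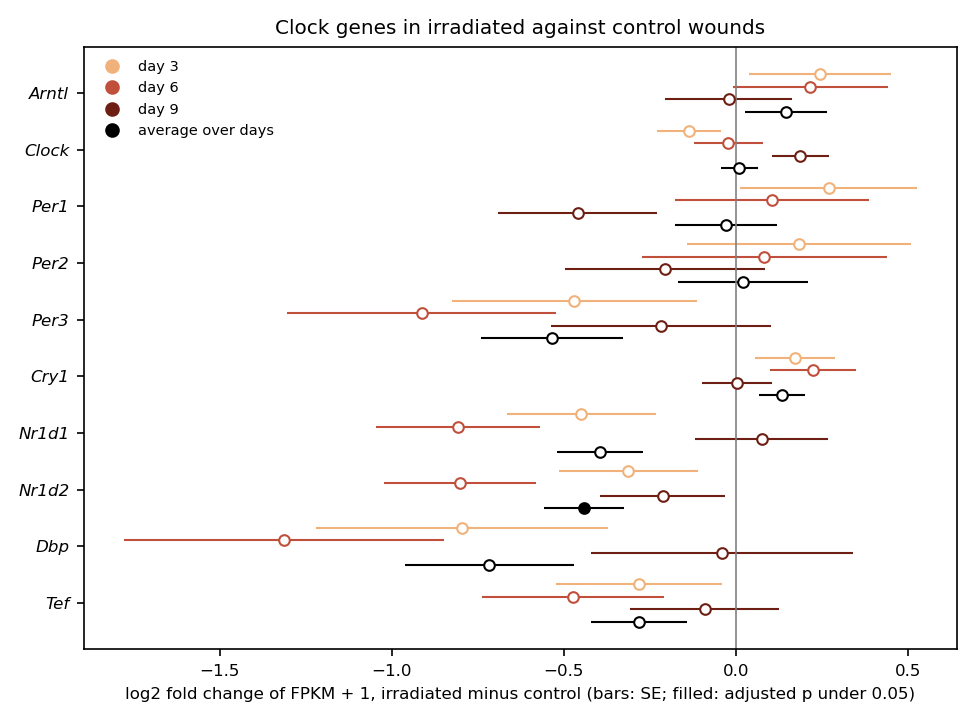
Log2 fold change of FPKM + 1 (horizontal axis) of each clock gene in irradiated minus control wounds at day 3, day 6, day 9 and averaged over days (black); bars are standard errors and the only filled point, with an adjusted p under 0.05, is Nr1d2 averaged over days. The day-6 values of Dbp, Per3, Nr1d1 and Nr1d2 lie furthest to the left and the day-9 values nearer to 0.

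Libraries of the same group differed in the balance between Arntl and its targets. In irradiated day 6, Arntl was 2.28 times higher in replicate 1 than in replicate 3, at 3.10 against 1.36 FPKM. In the same pair Per3 was 4.11 times and Dbp 3.92 times higher in replicate 3. Replicate 1 thus had the highest Arntl and the lowest Dbp and Per3 of all 15 wound libraries. The 2 day-0 libraries differed in the same sense, with Arntl 1.55 times higher in replicate 1 and Per2, Dbp and Per3 higher in replicate 2 by 3.92, 2.47 and 2.2 times. In control day 6, Dbp, Per1 and Per2 were higher in replicate 2 by 2.14, 1.94 and 1.91 times, but Arntl differed by 1.05 times only. The ratio of Dbp to Arntl FPKM, a measure of which arm of the loop is high, ran from 0.502 in irradiated day 6, replicate 1, to 8.12 in control day 6, replicate 2. It was 1.56 and 5.95 in the 2 day-0 libraries. In control wounds the ratio lay at 6.21 and 6.70 at day 3, 3.96 and 8.12 at day 6, and 5.92, 3.05 and 3.83 at day 9. Irradiated wounds had 1.81, 2.70 and 3.71 at day 3, 0.502 and 4.49 at day 6, and 3.64, 4.08 and 4.5 at day 9. The irradiated day-3 ratios were all lower than the control day-3 ratios, and at day 9 the arms overlapped.

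Other genes of the loop singled out after their values were seen stood apart in the same library. Npas2, which can replace Clock as partner of Arntl, was at 1.55 FPKM in irradiated day 6, replicate 1, and 0.331 FPKM in replicate 3. Nfil3, a repressor at D-boxes, was at 30.3 and 13.3 FPKM, and Ciart, a repressor driven by E-boxes, at 1.09 and 3.96 FPKM. That library also had a keratinocyte marker sum of 4871 FPKM against 16265 FPKM in replicate 3, and a neutrophil marker sum of 9780 against 4630 FPKM. The part of this difference in makeup in the clock gene levels was not tested.

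**Figure D4:**
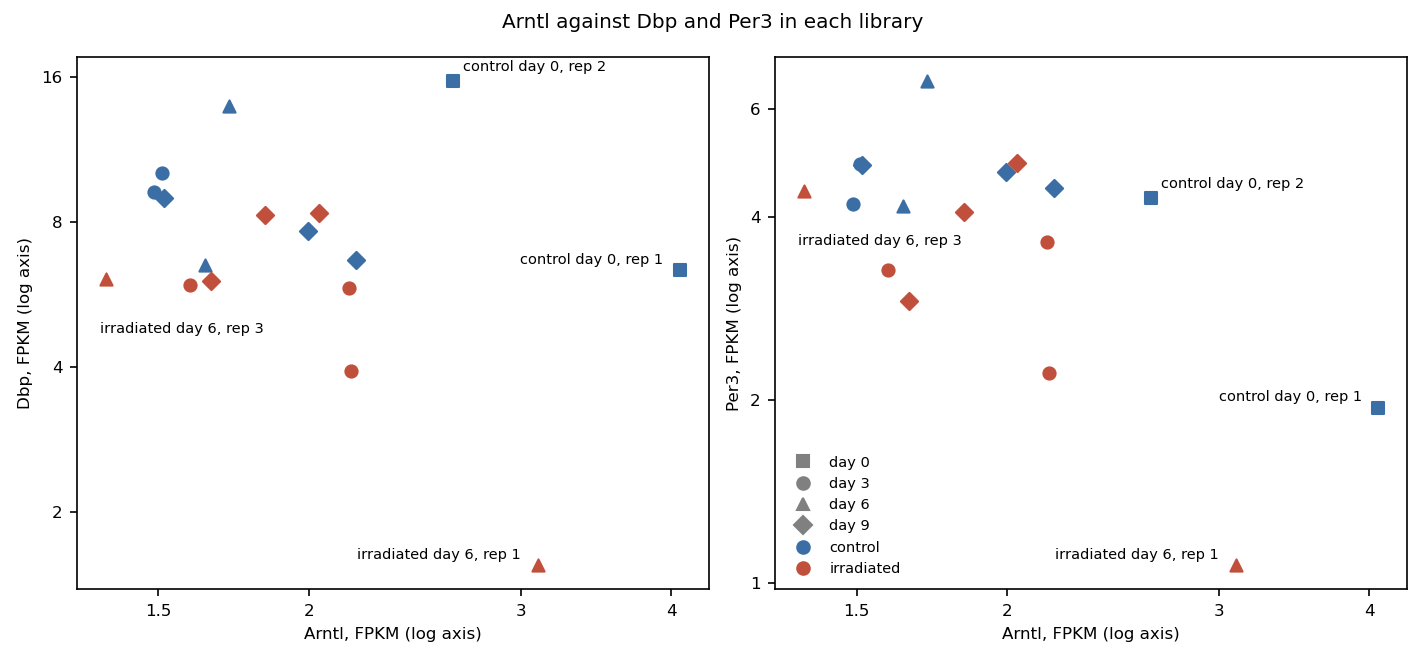
FPKM of Dbp (left) and Per3 (right) against FPKM of Arntl, all on log axes, in each of the 17 libraries, with colour for the arm and shape for the day. Irradiated day 6, replicate 1, lies at 3.10 FPKM Arntl with 1.56 FPKM Dbp and 1.07 FPKM Per3, away from replicate 3 of its group.

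Across libraries, the relation of Arntl to the other 9 genes was computed on log2(FPKM + 1). With all 17 libraries, 0 of 9 relations passed after adjustment over the 9 (two-sided permutation test, 100000 resamples). Per3 had r = -0.64 (permutation p 0.00867, adjusted 0.0682) with Spearman's rho -0.40 (p 0.115, adjusted 0.515). Dbp had r = -0.32 (permutation p 0.198, adjusted 0.255) with rho -0.26 (p 0.31, adjusted 0.696). Without the 2 libraries farthest from the median of Arntl, which are control day 0, replicate 1, and irradiated day 6, replicate 1, r was -0.17 for Per3 and 0.10 for Dbp. Day 0 and the later days form separate groups for Nr1d1 and Cry1, so the 15 libraries of days 3, 6 and 9 were also taken alone. The choice of this subset thus rests on values of genes that it tests. As with all 17, the permutation shuffled libraries freely across groups of day and arm, so differences between groups enter its p-values. There 4 of 9 relations passed the permutation test, namely Dbp (r = -0.70, adjusted p 0.0338), Nr1d1 (-0.64, 0.0338), Cry1 (0.63, 0.0338) and Per3 (-0.65, 0.0339). Without the 2 farthest of these, control day 9, replicate 2, and irradiated day 6, replicate 1, 0 of 9 passed and r was -0.33, -0.22, 0.44 and -0.30. The 4 values of r kept their signs. Leaving out the 2 libraries with the most extreme Arntl also narrows its range, and they were left out only together. The loss of the calls therefore cannot be assigned to either library. With each library taken as its deviation from its group mean, r was -0.76 for Dbp, -0.71 for Per3, -0.69 for Per1, -0.64 for Nr1d2 and 0.64 for Cry1. By an exact permutation test within groups (3456 arrangements), 0 of 9 of these passed, with exact p of 0.14, 0.306, 0.0558, 0.262 and 0.0463 before adjustment and 0.316, 0.372, 0.168, 0.372 and 0.168 after it.

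**Figure D5:**
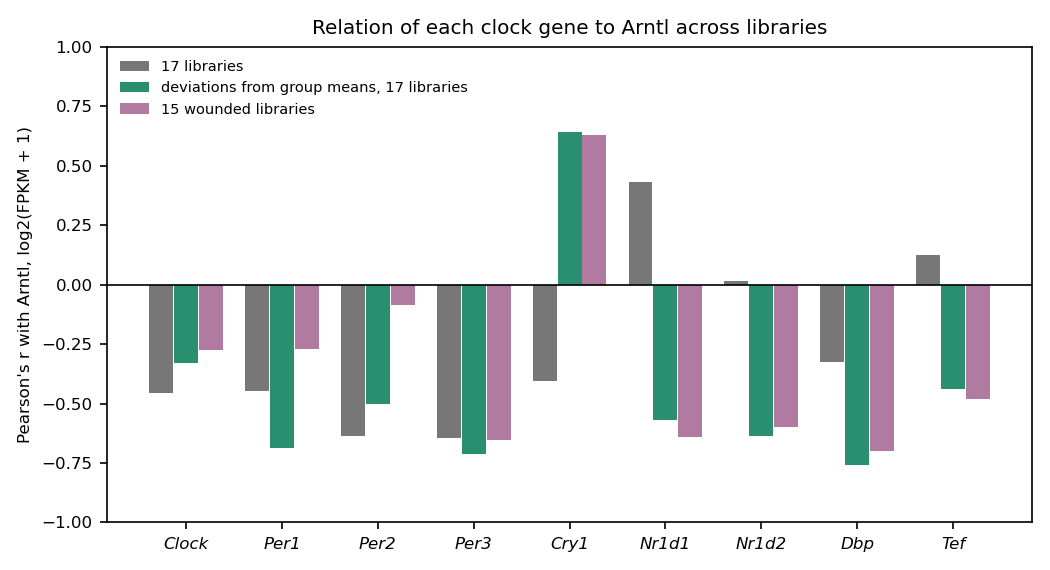
Pearson's r of each clock gene with Arntl on log2(FPKM + 1), from -1 to 1 (vertical axis), over 17 libraries (grey), over deviations from group means (green) and over the 15 libraries of days 3, 6 and 9 (purple). Cry1 is the only gene with a positive r in the green and purple bars, at 0.64 and 0.63.

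Likeness was also ranked over 12447 protein-coding genes outside the 10, as a description over 17 libraries that share groups and depth. The gene whose log2 level was most like that of Arntl was Ppm1j (r = 0.87), followed by Spop (0.86) and Zfp768 (0.85), and the least like were Tubb2b (-0.90) and Tcf19 (-0.88). For Dbp the highest were Cdk19 (0.83) and Acvr2a (0.83), and the lowest of all was Nfil3 (-0.83), the clock gene that encodes the D-box repressor. Irradiated day 6, replicate 1, held the highest Nfil3 (30.3 FPKM) and the lowest Dbp (1.56 FPKM) of the 17 libraries. No likeness was computed without that library. By deviations from group means, the genes most like Dbp were Srsf11 (0.97) and Ciart (0.97), a clock gene too. For Arntl on that scale they were Spop (0.94) and Ugp2 (0.92), and the least like was Sin3b (-0.90).

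Other parts of the pathway were counted from lists. Of 11 other clock transcription factors, 10 were tested. Against day 0, 2 rose and 3 fell at day 3, 1 rose and 3 fell at day 6, and 1 rose and 4 fell at day 9. These counts of 5, 4 and 5 of 10 stand beside 38.1%, 35.3% and 48.4% of all tested genes, which are not far from them. Npas2 fell by 0.94, 1.06 and 0.56 on the log2 scale (limma adjusted p 0.00885, 0.0051 and 0.0494), and Cry2, the second cryptochrome, by 0.59, 0.73 and 0.77 (adjusted p 0.042, 0.0179 and 0.0057). Bhlhe40, which competes for E-boxes, rose by 0.86, 1.0 and 0.77 (adjusted p 0.0438, 0.0247 and 0.0397). With median-of-ratios scaling Bhlhe40 no longer passed at days 3 and 9 (0.67 and 0.64, limma adjusted p 0.124 and 0.0903), and rescaled to nuclear genes it did not pass at days 3 and 6 (adjusted p 0.0738 and 0.053). Npas2 at day 9 did not pass by limma-voom (adjusted p 0.0652). Cry2 passed at each day under both scalings. The median log2 change of the 10 was -0.44, -0.32 and -0.34, beside 0.16, 0.11 and 0.15 over all genes tested. In the averaged irradiation comparison 0 of the 10 passed by limma and 4 had an unadjusted p under 0.05, and the lowest adjusted p was that of Hlf, the third PAR bZIP gene (-0.59, limma adjusted p 0.05004). Hlf passed with median-of-ratios scaling (adjusted p 0.0369) and by limma-voom (adjusted p 0.0477), each of which called 1 of the 10.

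Among 8 tested kinase and protein turnover genes of the clock, Usp2, a deubiquitinase whose gene is itself clock-driven, fell by 1.38, 0.94 and 1.5 on the log2 scale at days 3, 6 and 9 (limma adjusted p 0.00097, 0.0104 and 0.000192). Csnk1d, a PER kinase, rose at day 3 by 0.33 and at day 9 by 0.31 (adjusted p 0.015 and 0.00852). Csnk1d did not pass with median-of-ratios scaling (0.13 and 0.18, adjusted p 0.26 and 0.0693), nor at day 3 when rescaled to nuclear genes (adjusted p 0.234). In the averaged irradiation comparison 0 of the 8 passed by limma or limma-voom, and 3 had an unadjusted p under 0.05 by each. With median-of-ratios scaling 1 passed. Of 10 tested output genes, 3 rose and 2 fell at day 3, 1 rose and 1 fell at day 6, and 2 rose and 4 fell at day 9 against day 0, beside the same 38.1%, 35.3% and 48.4% of all genes. Pik3ip1, an inhibitor of PI3 kinase, fell at each day by 1.42, 1.07 and 1.11 (limma adjusted p 0.000194, 0.00121 and 0.000293). The cell cycle kinase gene Wee1 rose at each day by 0.86, 0.87 and 0.86 (limma adjusted p 0.0261, 0.0276 and 0.0134), but not past the threshold at days 3 and 6 when rescaled to nuclear genes (adjusted p 0.0658 and 0.0893). In the averaged irradiation comparison 2 rose and 0 fell, where 4.36% of all tested genes rose and 2.57% fell. The 2 were Nampt, which makes NAD (0.57, limma adjusted p 0.0218), and Leo1 (0.23, adjusted p 0.0242). Rescaled to nuclear genes, Leo1 had a limma adjusted p of 0.0603.

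Glucocorticoid hormone can reset the clocks of peripheral tissues and induces Per1, so its responsive genes were followed beside the clock. Of 7 tested, Pdk4 fell by 3.54, 4.90 and 5.97 on the log2 scale against day 0 (limma adjusted p 0.000424, 8.74e-05 and 6.51e-06), from 378 and 187 FPKM at day 0. Pdk4 is also abundant in muscle. Zbtb16 fell by 1.84, 1.94 and 2.78 (adjusted p 0.00157, 0.0013 and 3.69e-05) and Klf9 by 1.26, 1.23 and 1.52 (adjusted p 0.00412, 0.00508 and 0.000464). In irradiated against control wounds, averaged over days, 3 of the 7 rose and 0 fell, where 4.36% of all tested genes rose. They were Pdk4 (1.10, limma adjusted p 0.0382), Fkbp5 (0.81, adjusted p 0.00721) and Zbtb16 (0.68, adjusted p 0.0447). When rescaled to nuclear genes 1 of the 7 passed. Per1 did not pass in that comparison (-0.03, adjusted p 0.932).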

How the data were processed

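Total RNA of mouse skin was made into paired-end Smart-Seq2 libraries, per the labels' protocols. Reads were aligned to mm10 with HISAT2 2.2.1, per the submitters' processing notes. For the counting tool and its annotation, no name is given in the sources used here. The authors deposited FPKM per gene and library, with no counts. Of the nonzero deposited FPKM values, 90.75% to 91.05% per library were whole numbers of fragments within 0.01 at GENCODE M21 exon lengths. This held for all values of 9 members and for none of Tef, whose fragments are therefore not given. Tef entered limma-voom as rounded estimates at that length, so its limma-voom result is less sure than those of the other 9.

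Values were tested as log2(FPKM + 1), which understates changes of low genes. Genes of at least 1 FPKM in at least 2 libraries were kept (15271). Limma-trend (limma 3.58.1, R 4.3.3, data.table package version 1.17.8) was fitted with 7 group means over 17 libraries, with Benjamini-Hochberg adjustment over all tested genes and 0.05 as threshold. Whether the libraries of a group are from different animals is not in the labels, and p-values then measure only the spread between these samples, which may be technical. Same-numbered libraries of a day had residual correlations of -0.122 to 0.298 across genes. Counts at an unadjusted p under 0.05 are given without the share of all genes at that threshold. The shares given for adjusted p cannot be set beside them. Permutation tests used SciPy 1.17.1 (with NumPy 2.4.6 and pandas 2.3.3), and figures matplotlib 3.10.9. Scripts were tested on simulated data.

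The members and lists were chosen with earlier results of these data known. The genes named are the 10 members, up to 4 passing genes per list and comparison with the largest changes, and the 5 highest and lowest in likeness; some list genes are counted but not reported by name here. Alternatives were pseudocounts of 0.1 and 5, no filter, 2 other scalings, fits restricted to the compared groups, a replicate block, and each replicate left out. Limma-voom on recovered fragments was chosen after seeing the data.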

Additional observations from a re-analysis of the deposited data

How the results depend on the processing

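No member that passed in a comparison changed sign there under the alternatives run. Of the 10 members, the number passing in the averaged irradiation comparison was 1, against 0 when low genes were kept (2.72% of all genes) and 3 with the replicate block (6.57%; Nr1d2, Dbp and Per3, limma adjusted p 0.0138, 0.0476 and 0.04997). The replicate numbers are not known to pair the libraries. With a fit of only the groups compared, the counts were 1 at control day 3, 1 at day 6 and 3 at day 9 against day 0, 0 for control day 9 against day 3 and 1 for irradiated day 9 against day 3. In those fits 13%, 2.36%, 34%, 19.7% and 4.31% of all genes passed. With low genes kept, control day 9 against day 0 gave 3 (23.2% of all genes). Rescaled to nuclear genes, control day 9 against day 3 gave 0 (14.1%). Among the 15 libraries of days 3, 6 and 9, a subset chosen from member values, 4 relations to Arntl passed with libraries shuffled across groups. With each replicate left out in turn, the counts ran from 0 to 3 for irradiation at day 6, 0 to 3 averaged, 2 to 5 for control day 3 against day 0, 2 to 4 for day 6, 2 to 6 for day 9, 0 to 1 for control day 9 against day 3, 0 to 1 for irradiated day 9 against day 3, and 0 to 2 for the relations to Arntl. Where an arm was left with 1 library, it was assumed to vary like the other groups. The cause of these shifts was not tested. Nr1d1 against day 0 passed at each day under all 25 alternatives, and Cry1 under 24, 24 and 25. With 2 or 3 libraries per group and no clock hour in the labels, a difference in sampling hour cannot be told apart from one in day or arm.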
